A study of Mus musculus with 7 samples.

Results

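The Six-family, Eya and Dach genes were described in mouse primary myoblasts and in the myotubes formed from them. They were the 8 genes Six2, Six4, Six5, Eya1, Eya2, Eya3, Eya4 and Dach1, chosen by symbol from an expression table of 37975 genes, together with the MyoD peaks at their loci. The series held 7 samples with 1 sample in each group, and 3 were used. Polyadenylated RNA was sequenced from growing primary myoblasts and from myotubes after 48 hours in medium with 5% horse serum, and both cultures carried an empty retroviral vector. Binding of MyoD, a basic helix-loop-helix (bHLH) activator of muscle genes, was profiled by chromatin immunoprecipitation and sequencing (ChIP-seq) in 2-day myotubes, a sample that its label traces to an earlier one. The cells came from satellite cells, the stem cells of muscle, isolated by cell sorting from mice aged 4 to 6 weeks. Strain, sex and number of animals are not stated in those labels.

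Six-family proteins are homeodomain transcription factors that bind MEF3 elements in muscle promoters. Eya proteins do not bind DNA on their own. They join Six-family proteins as coactivators and also carry a phosphatase domain. Dach proteins are related to the Ski corepressors and act in the same network, first worked out in the eye of Drosophila. In the mouse embryo Six-family and Eya genes act upstream of the myogenic factors, and in muscle fibres Six-family proteins with Eya promote the fast-fibre programme.

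Expression was deposited as 1 FPKM value per gene and condition (sequenced fragments relative to transcript length and to library depth), so no value has a spread between replicates and read totals are not known. Fold changes are 2-day myotubes over growing myoblasts on the log2 scale. Their standard errors (SE) were recovered from the authors' test statistics and cannot be taken to hold the spread between cultures. A gene is called where the authors marked it significant (q at most 0.05). Over 15966 tested genes, the authors' deposited table called 23.9% in either direction, with 1041 up (6.52%) and 2769 down (17.3%) in myotubes. For the 15416 of them above 0 in both conditions, the median log2 fold change was -0.41. After subtraction of that median, 1575 genes were called higher and 1593 lower, so that the share of calls that were higher went from 27.3% to 49.7%. These calls use a Benjamini-Hochberg q over the 15416 genes. The subtraction sets the median to 0, so near-equal counts largely follow from it. Why more genes were lower before it was not tested. All 5 myotube markers (Myog, Ckm, Myh3, Acta1, Tnnt3) were higher by the authors' calls and of 5 myoblast markers (Pax7, Myf5, Myod1, Des, Met) 3 were lower and 1, Des, was higher. The summed level of the myoblast markers was 1663 FPKM in myoblasts and 3114 in myotubes, of which Des, also a muscle fibre protein, made up 2785. Markers of fibroblasts, endothelium, immune cells and adipocytes were at most 11.0 FPKM in myoblasts and 2.80 in myotubes. Their summed levels were 7.90 and 1.47 FPKM for 5 fibroblast markers, 4.69 and 0.289 for 3 endothelial markers, 11.0 and 2.83 for 3 immune markers and 1.96 and 1.37 for 3 adipocyte markers, with Lum and Emr1 at 0 in both conditions. Their part in the results was not tested.

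Of the 8 genes, 7 were tested by the authors, and Dach1 was not. Six4 and Eya2 fell as myoblasts became myotubes, and the other 5 tested genes were not called. By the calls of the authors' deposited table, 2 of 7 were lower (28.6%) and 0 higher, where 17.3% and 6.52% of all tested genes were called and 23.9% in either direction. With so few genes, these shares give no order against the background. The FPKM was lower in myotubes for 6 of the 7, against 66.6% of all tested genes above 0 in both conditions. The 6 include Eya3, whose log2 fold change of -0.03 became 0.39 after subtraction of the median of all tested genes. The median log2 fold change of the 7 was -1.21. In bulk RNA, fewer cells that express a gene and less RNA per cell cannot be told apart.

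**Figure D1:**
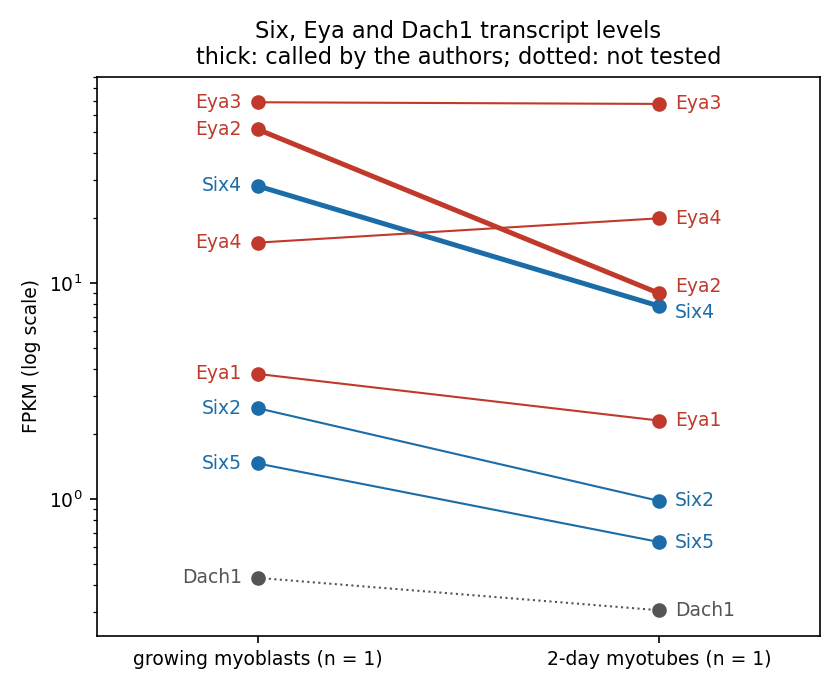
FPKM of the 8 genes (log axis) in growing myoblasts and in 2-day myotubes, 1 sample each, with a line joining the values of each gene. Thick lines mark Eya2 (51.6 to 8.99) and Six4 (28.2 to 7.85), which were called lower, and the dotted line marks Dach1, which was not tested.

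Among the DNA-binding Six-family factors, Six4 was by far the most abundant of the 3 members. From 28.2 FPKM in myoblasts it went to 7.85 in myotubes, a 3.60-fold fall (authors' deposited table: q = 2.86e-05, log2 -1.85; recovered SE 0.38). Six4 takes part in myogenesis of the mouse embryo. After subtraction of the median of all tested genes its log2 fold change was -1.43 (Benjamini-Hochberg q = 0.00202 over genes above 0 in both conditions). Six4 held 87.3% of the summed FPKM of Six2, Six4 and Six5 in myoblasts and 82.9% in myotubes.

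Six2 and Six5 were low in both conditions. Six2, known for keeping kidney progenitors undifferentiated, was at 2.64 FPKM in myoblasts and 0.984 in myotubes. It was not called (authors' deposited table: q = 0.108, log2 -1.43; recovered SE 0.67). Six5, which lies next to the myotonic dystrophy kinase gene Dmpk, was at 1.47 and 0.635 FPKM and was not called (authors' deposited table: q = 0.288, log2 -1.21; recovered SE 0.79). With a pseudocount of 1 the log2 fold changes of Six2 and Six5 were -0.88 and -0.59. After subtraction of the median of all tested genes they were -1.01 and -0.79, again without a call. The point estimates of all 3 Six-family genes were below 0. The 95% interval of Six2, from -2.73 to -0.12, left out 0 although the gene was not called. That of Six5, from -2.75 to 0.33, included 0. The intervals of all 3 pairwise differences included 0: the log2 fold change of Six4 minus that of Six2 was -0.42 with a 95% interval from -1.93 to 1.09, and minus that of Six5 it was -0.64, from -2.35 to 1.08. For Six2 minus Six5 the difference was -0.22, from -2.24 to 1.80.

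Eya2 fell from 51.6 to 8.99 FPKM, 5.74-fold (authors' deposited table: q = 5.87e-06, log2 -2.52; recovered SE 0.49), and 5.98% of tested genes above 0 in both conditions had a lower log2 fold change. After subtraction of the median of all tested genes its log2 fold change was -2.11 (Benjamini-Hochberg q = 0.000243 over genes above 0 in both conditions). Eya3 was at 69.0 FPKM in myoblasts and 67.7 in myotubes (authors' deposited table: q = 0.969, log2 -0.03; recovered SE 0.30). The 95% interval of Eya3, from -0.61 to 0.56, left out the point estimates of Eya2 and Six4. It describes 1 library per condition. Eya4, in which human mutations cause deafness and cardiomyopathy, was at 15.4 and 20.0 FPKM and was not called (authors' deposited table: q = 0.703, log2 0.37; recovered SE 0.56). Eya1, whose human mutations cause branchio-oto-renal syndrome, was at 3.81 and 2.32 FPKM and was not called (authors' deposited table: q = 0.246, log2 -0.72; recovered SE 0.43). After subtraction of the median of all tested genes the log2 fold changes of Eya4 and Eya1 were 0.79 and -0.30, again without a call.

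The Eya2 coactivator had the lowest log2 fold change of the 4 Eya genes in these libraries. Its log2 fold change minus that of Eya3 was -2.50, with a 95% interval from -3.61 to -1.38. Minus that of Eya4 it was -2.90, from -4.35 to -1.44, and minus that of Eya1 it was -1.80, from -3.08 to -0.52. The other Eya pairs had intervals that included 0: Eya1 minus Eya3 ran from -1.72 to 0.34, Eya1 minus Eya4 from -2.48 to 0.30, and Eya3 minus Eya4 from -1.64 to 0.84. These intervals take the errors of the genes as independent and are not adjusted for the 9 pairs within the families. They cannot be taken to hold the spread between cultures. They describe 1 library per condition, and that of Eya2 minus Eya1 came closest to 0 among those that left it out.

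**Figure D2:**
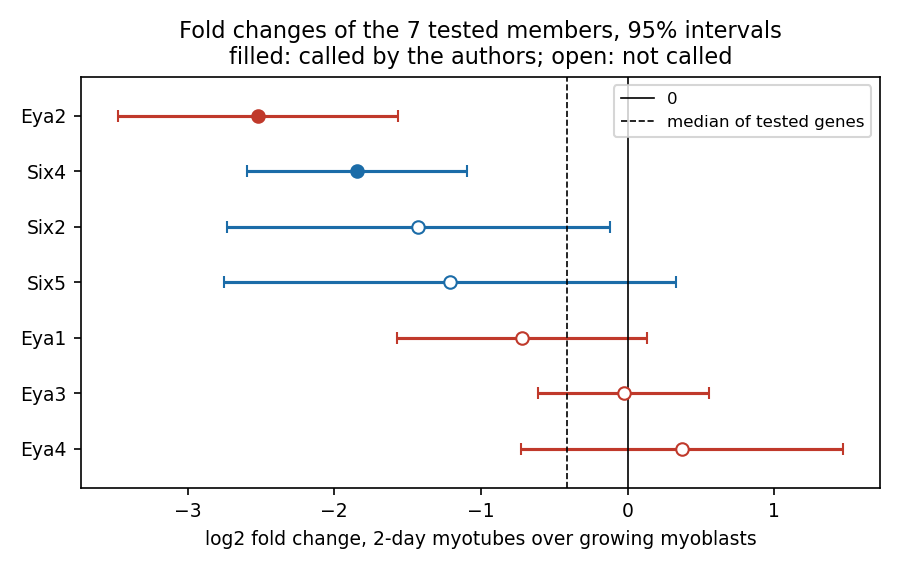
Log2 fold change, 2-day myotubes over growing myoblasts, of the 7 tested genes with 95% intervals from the recovered SE. Eya2 (-2.52) and Six4 (-1.85), filled, lie left of the dashed median of tested genes (-0.41) with their whole intervals. The points of Eya3 and Eya4 lie to its right, with intervals that include both 0 and that median.

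The make-up of the Eya pool changed with these values. The summed FPKM of the 4 Eya genes was 140 in myoblasts and 99.1 in myotubes. Eya3 held 49.3% of it in myoblasts and 68.4% in myotubes, Eya2 36.9% and 9.08%, Eya4 11.0% and 20.2%, and Eya1 2.72% and 2.34%. Eya3 was thus the most abundant Eya transcript in both libraries, while Eya4 passed Eya2 to become the next. The order of FPKM over all 8 genes in myoblasts was Eya3, Eya2, Six4, Eya4, Eya1, Six2, Six5 and Dach1. In myotubes it was Eya3, Eya4, Eya2, Six4, Eya1, Six2, Six5 and Dach1. With 1 value per condition it was not tested which neighbours in these orders differ. Eya3 exceeded 80.8% of tested genes in myoblasts and 82.6% in myotubes, whereas Eya2 went from 75.3% to 43.3% and Six4 from 61.5% to 40.4%.

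Dach1, the corepressor of the network, was at 0.433 FPKM in myoblasts and 0.307 in myotubes. The authors did not test it, and its level in myoblasts exceeded that of 2.30% of tested genes.

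The genes that share or border these loci give the setting of the counts. In the table Eya2 shares its locus with Gm11460, at 28.4 and 12.1 FPKM, which was not called (authors' deposited table: q = 0.274, log2 -1.24; recovered SE 0.79). Reads of genes that overlap can be hard to separate, and the strand setting of the counting is not known here. Dmpk, which ends 772 bp from Six5, was at 1080 and 865 FPKM (authors' deposited table: q = 0.314, log2 -0.32; recovered SE 0.22), so that Six5 stands beside a far more abundant gene. Mnat1, next to Six4, was at 21.5 and 14.6 FPKM, and Xkr8 and Smpdl3b, next to Eya3, were at 10.9 and 15.4 and at 9.17 and 11.5. Neither Mnat1, Xkr8 nor Smpdl3b was called in the authors' deposited table.

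By distance on log2(FPKM + 1) over the 2 conditions, the tested genes most like Eya2 were Fblim1 (52.7 and 8.86 FPKM, distance 0.035), Nup160 (51.4 and 8.69, distance 0.045) and Pold1 (53.0 and 8.73, distance 0.052). Those most like Eya4, the tested member with the highest fold change, were Polr2l (15.2 and 20.0 FPKM, distance 0.020), Spire1 (15.6 and 20.2, distance 0.021) and Gm13717 (15.2 and 20.3, distance 0.028). Only 2 values enter each distance, so it says only that levels were alike.

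Further Six-family, Dach and Pax genes of the network were read from a list of 5, of which 1 was tested and called lower. Over all tested genes 17.3% were called lower. Pax7, which marks satellite cells, fell from 48.5 to 6.71 FPKM (authors' deposited table: q = 3.75e-05, log2 -2.85; recovered SE 0.60). Six3, Pax3, Dach2 and Six6 were not tested and were at most 0.463 FPKM in either condition, with Six6 listed at 0 in both.

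Partners of the Six-family, Eya and Dach proteins were read from a list of cofactors and corepressors. Of 12 tested, the authors' deposited table marks 5 as lower and 2 as higher, where 17.3% and 6.52% of all tested genes were called, with a median log2 fold change of -0.63 against -0.41 for all tested genes. Tle2 and Tle1, Groucho corepressors, fell from 23.5 to 8.41 FPKM and from 34.7 to 14.6. Sin3a, a scaffold of histone deacetylase complexes, fell from 78.8 to 32.4 FPKM (authors' deposited table: q = 0.00131, log2 -1.28; recovered SE 0.34). Skil and Ncor1 were the other genes called lower. Of these 5, Tle1, Skil and Ncor1 lost the call after subtraction of the median. Aes, at 241 and 335 FPKM, Tle3, at 91.6 and 68.1, and Hdac3, at 77.8 and 46.6, were not called. The genes called higher were Sobp, a Six-binding cofactor, from 0.0765 to 2.44 FPKM, and Tle4, from 1.28 to 3.31. Skil, Ncor1, Sobp and Tle4 are named here after their values were seen.

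Genes reported downstream of Six-family proteins, with slow-fibre genes read beside them, went in different directions. Whether any of them depends on Six-family proteins in these cells was not tested. Over all tested genes, 6.52% were called higher and 17.3% lower. Of 4 myogenic bHLH genes, Myog (130 to 1207 FPKM) and Myf6 (3.41 to 14.3) rose and Myf5 (55.4 to 14.4) fell by the authors' calls, and Myod1, at 895 and 293, was not called. The call of Myf5 was lost after subtraction of the median (Benjamini-Hochberg q = 0.0878). All 17 tested fast-fibre genes of a list of 18 were called higher (the test of Pfkm, at 42.0 and 330 FPKM, had failed), with a median log2 fold change of 3.99 over the 16 above 0 in both conditions. Ckm, a creatine kinase, went from 49.4 to 1453 FPKM, Tnnc2, fast troponin C, from 311 to 7453, and Myh4, a fast myosin, from 4.02 to 90.6. Among 9 tested slow-fibre genes, 7 were higher and 0 lower by the authors' calls, with a median of 2.62. Casq2 rose from 41.7 to 777 FPKM, Myl2 from 3.47 to 60.4 and Tnnc1, which the table lists under 2 identifiers, from 189 to 3884 in the row with the larger values. Tpm3, at 245 and 144 FPKM, and Atp2a2, at 73.5 and 166, were not called. Of 7 tested genes reported as Six-family targets in other tissues, 3 fell and 0 rose by the authors' calls, where 17.3% of all tested genes fell and 6.52% rose. Their median log2 fold change was -1.09, against -0.41 for all tested genes. Ccnd1, cyclin D1, fell from 882 to 102 FPKM, Ezr, ezrin, from 85.8 to 16.7, and Myc from 55.3 to 24.9. The call of Myc was lost after subtraction of the median. Igfbp5, at 173 and 136 FPKM, Slc12a2, at 10.5 and 23.4, and Vegfc, at 6.48 and 3.05, were not called.

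**Figure D3:**
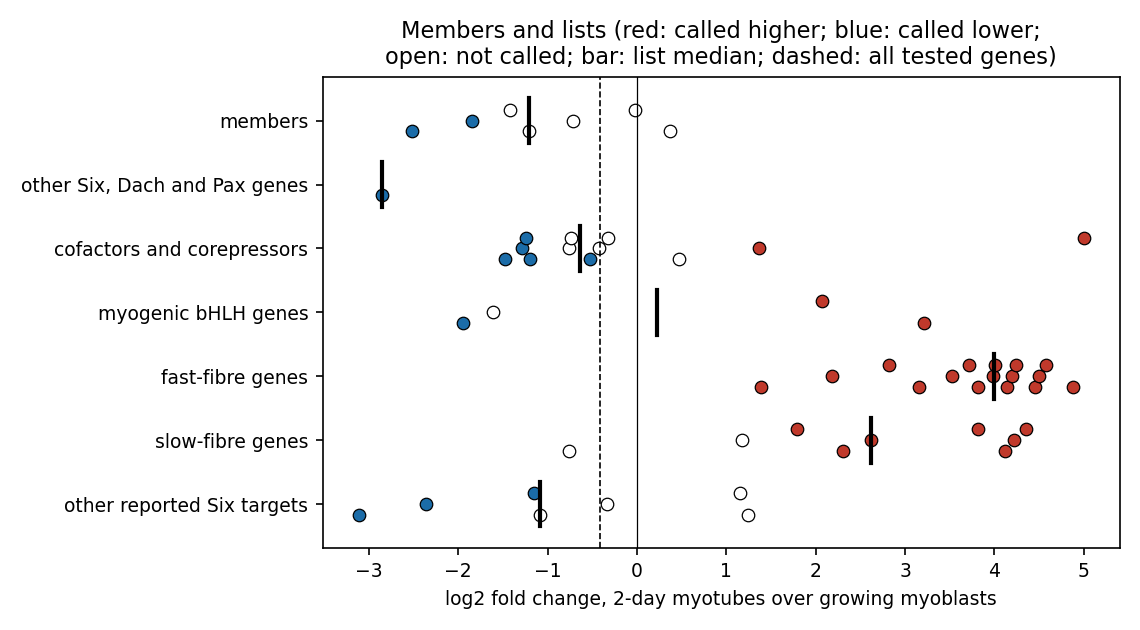
Log2 fold change, 2-day myotubes over growing myoblasts, of each tested gene with a finite value among the members and 6 related lists, with list medians as bars and the median of all tested genes (-0.41) dashed. The members lie between -2.52 and 0.37, whereas the fast-fibre genes lie to the right with a median of 3.99. Pvalb, listed at 0 in myoblasts, is not drawn.

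The MyoD peaks assigned to these loci had low enrichment for the list. The peak list of the authors, in mm9 coordinates, had 10756 entries. Its header gives 8637045 ChIP tags in total, of which 4049890 were unique. For the control it gives 9129012 tags in total and 4371189 unique. Tags, fold enrichment and false discovery rate are the authors' values for each peak. A peak was assigned where its summit lay in or within 10 kb of the locus. By this rule Six5, Eya2, Eya3 and Eya4 had 6 peaks among them, and Six2, Six4, Eya1 and Dach1 had none. All 4 with a peak were tested genes, 57.1% of 7, and 38.8% of all tested genes had a peak by the same rule. The loci of the members range from 3957 to 382920 bp, and the part of locus length in these counts was not tested. The 6 peaks held 7 to 21 tags, on both sides of the median of all peaks (14 tags). They had 6.76-fold to 13.0-fold enrichment, below the median enrichment of all peaks (15.3-fold). Their false discovery rates ran from 10.7% to 23.8%, and none was at most 5%, against 19.4% of all peaks. Of the called genes, Six4 had no peak within 10 kb and Eya2 had 1.

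At the Eya loci the assigned peaks lay inside the locus or at its start. Eya3, on chromosome 4 from 132194901 to 132280680, had a peak whose summit lay 92 bp below the lower end of the locus, with 13 tags and 8.57-fold enrichment. A further Eya3 peak, with 15 tags and 10.6-fold enrichment, lay inside the locus 14.2 kb from that end. Eya4, on chromosome 10 from 22823973 to 23069701, had 1 peak of 14 tags and 12.0-fold enrichment near the middle of its locus. Eya2, on chromosome 2 from 165480797 to 165597227, had 1 peak of 7 tags, the lowest number in the authors' list, 37.8 kb inside the locus. Gm11460 is listed with the same locus, so this peak falls to both genes.

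The peaks of Six5, on chromosome 7 from 19679942 to 19683898, lay on the side of Dmpk. One had its summit 345 bp below the lower end of the Six5 locus, with 21 tags and 7.20-fold enrichment. The other, also of 21 tags, lay 8.47 kb below that end, inside the Dmpk locus.

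Beyond the 10 kb limit and within 50 kb stood 7 peaks, of which 3 had a false discovery rate of at most 5%. The summit of a peak of 81 tags and 20.0-fold enrichment, with more tags than 99.7% of all peaks and a false discovery rate of 5.19%, lay 10.1 kb below the Six5 locus, inside Dmpk. That peak ran from -10401 to -9476 bp relative to the lower end of Six5, so part of it lay within 10 kb. Beyond the lower end of Eya4, peaks of 22 and 30 tags lay 12.4 and 14.7 kb away, with 23.0-fold and 30.0-fold enrichment and false discovery rates of 3.11% and 2.69%. Eya4 is on the minus strand in RefSeq, so its lower end is the side away from the start. A peak of 29 tags lay 25.3 kb below the Eya2 locus (15.8-fold, false discovery rate 2.23%). Another, of 7 tags, lay 17.0 kb above it (18.45-fold, false discovery rate 23.5%). RefSeq gives Eya2 a length of 176700 bp in GRCm38 against 116431 bp for the locus in the table, and whether either peak falls within the longer gene was not tested. Likewise the Six2 locus of 4008 bp compares with 25519 bp in RefSeq. For genes without an assigned peak, the nearest summit lay 29.2 kb away for Six2, 46.5 kb for Six4, where it was inside Mnat1, 157 kb for Eya1 and 3399 kb for Dach1.

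**Figure D4:**
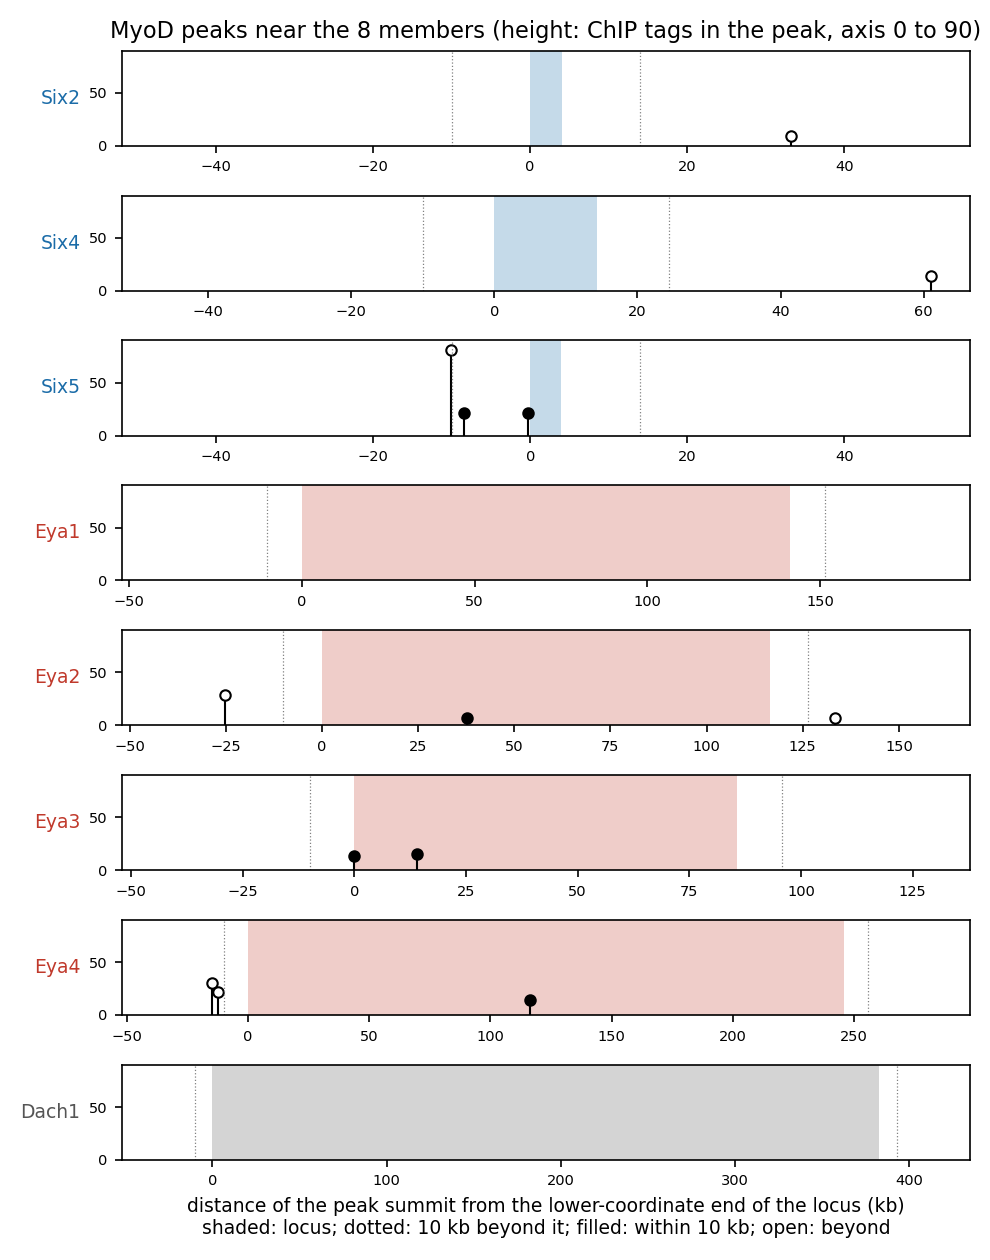
MyoD peaks in 2-day myotubes within 50 kb of the 8 loci, each row a gene, with the distance of the summit from the lower end of the locus in kb and the height as ChIP tags. Filled points, within 10 kb, reach 21 tags, and open points beyond it reach 81 tags next to Six5 and 30 tags next to Eya4.

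Promoters are shown for the pair of genes with a peak at the start of the locus, Eya3 and Six5, and for Six4, which fell with no peak near. The sequences are 250 bases before to 50 after a RefSeq start in GRCm38.p6, 5′ to 3′ on the strand of the gene, with capitals for E-boxes (CANNTG, the motif of bHLH factors) and for the MEF3 core (TCAGGTT or its reverse complement AACCTGA, the motif of Six-family factors).
Eya3, chr4:132638796-132639095, plus strand: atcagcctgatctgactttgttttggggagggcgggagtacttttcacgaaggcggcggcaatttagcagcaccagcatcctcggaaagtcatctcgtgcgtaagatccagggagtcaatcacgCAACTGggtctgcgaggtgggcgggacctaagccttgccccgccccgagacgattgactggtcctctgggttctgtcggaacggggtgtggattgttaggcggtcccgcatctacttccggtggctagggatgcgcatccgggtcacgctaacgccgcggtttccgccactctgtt
Six5, chr7:19094294-19094593, plus strand: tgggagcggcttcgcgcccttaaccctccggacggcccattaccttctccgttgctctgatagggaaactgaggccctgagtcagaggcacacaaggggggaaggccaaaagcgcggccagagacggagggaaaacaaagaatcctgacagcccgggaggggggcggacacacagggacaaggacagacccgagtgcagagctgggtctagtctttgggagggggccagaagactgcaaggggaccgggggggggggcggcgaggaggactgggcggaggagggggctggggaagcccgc
Six4, chr12:73113196-73113495, minus strand: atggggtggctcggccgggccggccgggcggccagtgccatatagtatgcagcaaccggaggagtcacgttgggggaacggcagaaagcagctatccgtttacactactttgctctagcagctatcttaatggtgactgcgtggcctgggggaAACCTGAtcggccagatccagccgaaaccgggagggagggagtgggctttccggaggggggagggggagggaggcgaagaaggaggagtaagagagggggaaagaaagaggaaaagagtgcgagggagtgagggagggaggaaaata

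Eya3 and Six5 are on the plus strand, so the lower end of the locus is the side of the start. In mm9 the Eya3 peak ran from -171 to 331 bp and the Six5 peak from -799 to -24 bp relative to that end, so both overlap the stretch printed if the starts of the builds correspond, which was not tested. The Eya3 window held 1 E-box, CAACTG, with its first base at -126 from the start, and neither CAGCTG nor, on either strand, the CAGGTG form. The Six5 and Six4 windows held no CANNTG. Over 32851 promoter windows of this length, 72.3% held a CANNTG, 16.3% a CAGCTG and 20.2% a CAGGTG on either strand. The Six4 window held 1 MEF3 core, AACCTGA, with its first base at -97, which was found in 4.07% of all windows and in no other member window, including the overlapping window of the other Six4 start. That other window, chr12:73113376-73113675, belongs to a start upstream of the printed one. The match therefore lies before the printed start but after the other. The table gave windows for 6 of the 8 genes. A match is a description of letters, and its absence says only that these letters are not in the window.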

How the data were processed

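RNA of 1 myoblast and 1 myotube sample and MyoD ChIP of 1 myotube sample were used. The other 4 samples, histone ChIP, were left out. Duplicate sequencing is mentioned in the labels' protocols, with no word on how runs were merged, and the antibodies listed there include none against MyoD. Expression values are FPKM as deposited by the authors in 2 identical copies, of which 1 was used, and p-values and q-values are those of the authors' test. The submitters' processing notes name Cuffdiff, CASAVA 1.7.0, MACS 1.3.7 and mm9. For the aligner, annotation and normalization setting nothing is given in the sources used here. Log2 fold changes of the authors were taken as deposited, and each SE as their size over the test statistic; p-values recomputed so differed from the deposited ones by at most 2.68e-06 over 15416 genes.

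Peaks were called at a p-value threshold of 1.00e-05, per the file headers. Tags per peak are counts, fold enrichment is a ratio over the local background, the false discovery rate is a percent, and the p score is 10 times a negative log10, per the file headers. The nature of the control sample is unknown here. Promoter windows are RefSeq's (GRCm38.p6), and no coordinate was converted between builds.

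No test was run on samples, since each group has 1. Members and lists were chosen with earlier results of these data known. Some genes of the related lists are not reported here and enter no list count or median. Named from lists of up to 6 genes were all members; from longer lists, up to 3 called rises and 3 called falls by size (larger FPKM at least 10, smaller at least 0.1) and the 3 uncalled genes of highest mean. Where a symbol had 2 rows, the one with the larger values was used. Intervals at 95% are normal intervals from the SE. Alternatives were centring on the median, pseudocounts of 0.1 and 1, q at most 0.01, a mean FPKM of at least 1, other windows, any base of a peak and stricter peaks. Scripts used Python 3.11.15 with pandas 2.3.3, numpy 2.4.6 and scipy 1.17.1 and were tested on simulated data.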

Additional observations from a re-analysis of the deposited data

How the results depend on the processing

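Across the alternatives run, 0 members were called higher and the count called lower was 2 throughout: with q at most 0.01, after centring on the median of all tested genes, and with a mean FPKM of at least 1. Centring moved the log2 fold change of Eya3 from -0.03 to 0.39 without a call (q = 0.42). It also moved Six5 from -1.21 to -0.79, Eya1 from -0.72 to -0.30 and Eya4 from 0.37 to 0.79, without a call. A pseudocount of 1 moved Six2 from -1.43 to -0.88, Six5 to -0.59 and the untested Dach1 from -0.50 to -0.13. For the 7 tested members these pseudocount shifts were smaller than the SE. After centring, 2 cofactors and 0 myogenic bHLH genes were called lower, against 5 and 1. With q at most 0.01, 1 cofactor was higher and 3 lower, and 1 myogenic bHLH gene was higher and 0 lower. Centring also replaced the authors' q by a Benjamini-Hochberg q over genes above 0 in both conditions, and these changes were not separated. With peaks of a false discovery rate of at most 5%, 0 members had a peak (11.7% of all tested genes). A window of 0 kb left 3 members with a peak (27.5% of all tested genes) and one of 50 kb gave 6 (59.9%). Counting any base of a peak in place of its summit gave the same 4 members as the main rule (39% of all tested genes). By that count the peak of 81 tags inside Dmpk falls to Six5. No paired analysis was possible because each group has 1 sample, and for the same reason no replicate could be left out.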

Other observations

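MyoD peaks were also counted at the related lists, as a description with no test. Of 12 tested cofactors and corepressors, 11 had a summit in or within 10 kb of the locus, as had 14 of 17 fast-fibre genes and 7 of 9 slow-fibre genes, against 38.8% of all tested genes. The shares were nearer to that at the 7 other reported Six-family targets, of which 3 had a peak, and at the 4 myogenic bHLH genes, of which 2 had one. Pax7 had a peak as well. The exception among the cofactors was Hdac3. Among fast-fibre genes, Ckm, Pvalb and Myh4 had none. Loci differ in length, and the part of length in these counts was not tested.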
